A study of Mus musculus with 4 samples.

Results

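The CC chemokine genes Ccl2, Ccl3, Ccl4, Ccl5, Ccl6, Ccl7, Ccl8, Ccl9 and Ccl12, with the receptor gene Ccr2, were followed through a culture in which mouse bone marrow cells become osteoclasts, the multinucleated cells that resorb bone. The 10 genes were taken by name, through every probe set that the platform annotation gives to 1 of them, which came to 15 of 45101 probe sets and 10 of 18193 named genes. The names were chosen by the size of their differences between the same 4 arrays, so all values here are descriptions of those arrays. Marrow came from female C57Bl/6J mice aged 12 weeks. The array of day 1 holds marrow cells on the day of extraction, with 0 days of culture. The day 4 array holds cells after 3 days of culture with vitamin D3 at 10 nM and 10% serum. The arrays of days 5 and 7 hold cells after 4 and 6 days in all, the later part of it with 20 ng/ml M-CSF, which macrophages and their precursors need to survive, and 40 ng/ml RANKL, the cytokine that drives osteoclast formation, beside the same serum and vitamin D3. There was 1 array per day and thus no replicate, no test and no p-value. Whether the 4 samples share a culture, or mice were pooled, is not stated in the labels, and no array of days 5 or 7 lacked the cytokines, so that their effect and that of time in culture cannot be told apart.

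CC chemokines are small secreted proteins that carry a pair of neighbouring cysteines and draw leukocytes along a gradient by binding G protein-coupled receptors. Ccr2 is the receptor of inflammatory monocytes, which need it to leave the bone marrow, and Ccl2, Ccl7 and Ccl12 are its ligands in the mouse. Monocytes are also the precursors of osteoclasts, and osteoclasts themselves secrete several of these chemokines, Ccl9 above all. The ligand genes lie in a cluster on chromosome 11, where the RefSeq table of the GRCm38.p6 assembly orders the protein-coding genes as Ccl2, Ccl7, Ccl11, Ccl12, Ccl8 and Ccl1 in a first block and Ccl5, Ccl9, Ccl6, Ccl3 and Ccl4 in a further block. Ccr2 lies next to Ccr3 on chromosome 9.

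Signals are the authors' values on a linear scale. A floor was set at 32.4 signal units, the median of all values, and lower signals were raised to it before log2 differences between days were computed. The call of higher or lower was given at 2-fold or more, and where 1 of the 2 arrays was under the floor the fold is a bound. Where a gene had several probe sets, the one with the highest mean signal stood for it. Signals of different probe sets depend on the probes, so levels are compared between days and not between genes. Over all probe sets of a gene the pooled SD of the log2 difference was between 0.26 (day 7 over day 5) and 0.53 (day 7 over day 1), which describes the arrays and not the spread between cultures.

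The sequences that bear on the members' starts are the 250 bases before the RefSeq start site (GRCm38.p6), which the tables used here held for 6 of the 10 genes (Ccl3, Ccl6, Ccl8, Ccl9, Ccl12 and Ccr2). The windows of 4 genes are shown to set courses of signal beside each other. Ccl12 and Ccl8 are neighbours that were both at least 2-fold higher on day 5 than on day 4. Of this pair, Ccl12 alone also passed 2-fold on day 4 over day 1, and Ccl8 alone on day 7 over day 5. Ccl9, whose product osteoclasts secrete, differed by less than 2-fold at each step between consecutive days, and Ccr2 is the receptor that was lower. Capitals mark matches on either strand to the NF-kB consensus, to TGANTCA (AP-1), a repeat of GAAA with 2 bases between (interferon response), TTCNNNGAA (STAT), GAGGAA (ETS factors such as PU.1) or TATAAA.
Ccl12, chr11:82101595-82101844, plus strand: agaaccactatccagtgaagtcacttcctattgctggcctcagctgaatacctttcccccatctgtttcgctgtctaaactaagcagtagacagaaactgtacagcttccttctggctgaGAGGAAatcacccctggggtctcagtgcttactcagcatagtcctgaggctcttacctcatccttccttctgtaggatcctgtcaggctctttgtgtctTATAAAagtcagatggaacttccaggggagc
Ccl8, chr11:82114935-82115184, plus strand: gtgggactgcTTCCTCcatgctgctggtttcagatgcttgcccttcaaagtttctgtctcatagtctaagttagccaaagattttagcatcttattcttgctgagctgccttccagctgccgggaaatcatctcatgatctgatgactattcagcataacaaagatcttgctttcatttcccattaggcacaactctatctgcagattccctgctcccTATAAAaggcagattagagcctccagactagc
Ccl9, chr11:83578637-83578886, minus strand: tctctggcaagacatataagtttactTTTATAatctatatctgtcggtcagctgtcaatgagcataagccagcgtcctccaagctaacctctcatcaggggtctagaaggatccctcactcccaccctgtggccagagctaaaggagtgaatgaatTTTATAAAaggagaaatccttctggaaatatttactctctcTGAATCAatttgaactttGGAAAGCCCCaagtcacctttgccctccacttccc
Ccr2, chr9:124101933-124102182, plus strand: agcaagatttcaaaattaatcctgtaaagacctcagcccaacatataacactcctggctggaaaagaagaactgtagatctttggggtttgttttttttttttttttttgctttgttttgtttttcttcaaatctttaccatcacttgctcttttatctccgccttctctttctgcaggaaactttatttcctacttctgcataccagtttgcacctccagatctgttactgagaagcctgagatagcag
In both Ccl12 and Ccl8 TATAAA lay close to the start, with its 5′ base 31 bases before it in Ccl12 and 32 bases before it in Ccl8. GAGGAA was found once in each, at 130 bases in Ccl12 and, on the opposite strand, at 240 bases in Ccl8. The Ccl9 window held TGAATCA at 53 bases and, on the opposite strand, an NF-kB consensus match at 35 bases, besides 3 matches to TATAAA, a pair of them overlapping, between 224 and 87 bases. The Ccr2 and Ccl6 windows held none of these motifs, and Ccl3 had GAGGAA alone, on the opposite strand. Among all 32851 windows of this length, TATAAA was found in 12.4%, GAGGAA in 23.3%, TTCNNNGAA in 7.02%, TGANTCA in 6.75%, the NF-kB consensus in 3.90% and the spaced GAAA repeat in 2.98%. These matches describe letters in a short window only.

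The ligands of Ccr2 were, with Ccl8, the members with the largest differences upward. Ccl2, the main attractant of monocytes (probe set 1420380_at), had signals of 816, 1266, 7179.95 and 9525 on days 1, 4, 5 and 7. Ccl7, a close relative that acts on the same receptor (1421228_at), had 168, 505, 4728 and 5911. Ccl12, a further ligand of the mouse receptor (1419282_at), had 67.2, 156, 3098 and 5507. All 3 were lowest on day 1 and highest on day 7, and for each of them the step that led to the day 5 array, the first with M-CSF and RANKL, was the largest. Ccl12 was 19.8-fold higher on day 5 than on day 4, Ccl7 was 9.35-fold and Ccl2 was 5.67-fold higher. Of the whole log2 difference between days 7 and 1, this 1 step held 70.6% for Ccl2, 67.8% for Ccl12 and 62.8% for Ccl7. The 3 days before M-CSF and RANKL, where vitamin D3, serum and culture itself cannot be told apart, held less. Ccl7 was 3.01-fold, Ccl12 2.32-fold and Ccl2 1.55-fold higher on day 4 than on day 1. Between days 7 and 5 none of the 3 differed by 2-fold, with log2 differences of 0.83 (Ccl12), 0.41 (Ccl2) and 0.32 (Ccl7).

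Ccl8, whose gene lies between Ccl12 and Ccl1 and whose product signals through Ccr8 in the mouse, differed at later steps. Its signals (1419684_at) were 63.0, 71.6, 294 and 1210.5 on days 1, 4, 5 and 7. Days 1 and 4 lay within 1.14-fold of each other, and the remaining difference fell evenly on the steps to day 5 and to day 7, at 4.11-fold each. Ccr8 itself was under the floor on all 4 arrays, with signals between 1.44 and 7.33. Ccl11, an attractant of eosinophils whose gene sits between Ccl7 and Ccl12, was also under the floor on all 4 arrays, at 9.14, 1.52, 8.93 and 11.2, and so was Ccl1, at the far end of the block, with signals between 3.01 and 14.4. Of the 6 genes of the block, the 4 members were at least 2-fold higher on day 5 than on day 4, where 2.02% of all genes were. These members were chosen with such differences in view, and the other genes of the block, under the floor, could not be called. A signal under the floor does not show that a transcript was absent.

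**Figure D1:**
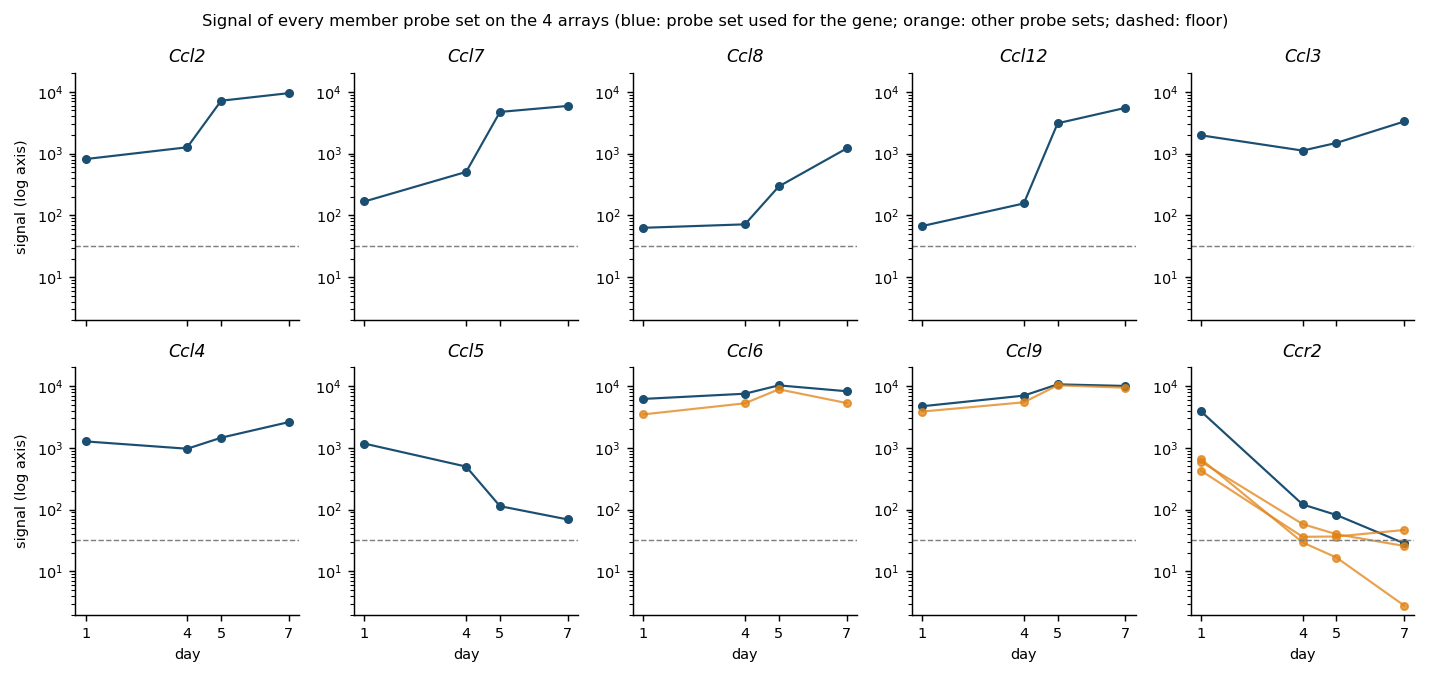
Signal on a log axis (vertical) against day (horizontal) for the 15 probe sets of the 10 members, 1 point per array; blue marks the probe set that stands for the gene, orange the other probe sets and the dashed line the floor of 32.4. Ccl2, Ccl7 and Ccl12 step up at day 5, Ccl8 at days 5 and 7, Ccl5 declines over the 4 arrays, and all 4 probe sets of Ccr2 drop between days 1 and 4.

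The macrophage inflammatory chemokine genes Ccl3 and Ccl4, neighbours in the further block, were lowest on day 4. Ccl3, which acts on Ccr1 and is a known stimulus of osteoclast formation (1419561_at), had signals of 1978, 1119, 1490.3 and 3311 on days 1, 4, 5 and 7. Ccl4, its close relative (1421578_at), had 1269, 966, 1457 and 2608. Both were highest on day 7, and day 1 lay above day 5 for Ccl3 and below it for Ccl4. Ccl3 was 2.22-fold higher on day 7 than on day 5, and Ccl4 was 1.79-fold higher, just under the threshold. Against day 4, the day 7 signals were 2.96-fold higher for Ccl3 and 2.70-fold higher for Ccl4, and against day 1 they were 1.67-fold and 2.06-fold higher.

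Ccl5, a chemokine known mainly as a product of T cells, NK cells and platelets and as a gene of the interferon response (1418126_at), was the only ligand of the 9 that was lower at each step. Its signals were 1169, 496, 114 and 69.2 on days 1, 4, 5 and 7. It was 2.36-fold lower on day 4 than on day 1, 4.37-fold lower on day 5 than on day 4, 1.64-fold lower on day 7 than on day 5, and 16.9-fold lower on day 7 than on day 1. Of 12 marker genes of T and NK cells, 6 were above the floor on day 1, 3 on day 4 and 1 on each of days 5 and 7, and their summed signal was 1448, 271, 249 and 145. Cd3e, a T cell gene, was under the floor on all 4 arrays, with signals between 6.81 and 10.4. Cd3g and Cd2 of the same list were above the floor on day 1, at 36.8 and 118, and had 2.42 and 4.06 on day 7. Nkg7, of cytotoxic cells, had 759, 41.2, 19.1 and 12.8. Among 10 measured interferon response genes, 9 passed 2-fold downward between days 4 and 1, with a median log2 difference of -2.31, while none differed by 2-fold on day 5 over day 4, where Ccl5 had its largest difference. Of 8 platelet genes 0 passed 2-fold on day 4 over day 1, and 7 were lower on day 5 over day 4 and again on day 7 over day 5. Over all genes, 8.65%, 4.04% and 5.84% were lower at the steps to days 4, 5 and 7. The part of these cell types in the Ccl5 values was not tested, and in bulk samples fewer cells of a type and less RNA per cell cannot be told apart.

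Ccl6 and Ccl9, a pair of neighbouring mouse genes whose proteins act on Ccr1, differed least. Ccl6 (1417266_at) had signals of 6179.7, 7503, 10245.5 and 8234 on days 1, 4, 5 and 7, and its other probe set (1420249_s_at, of a kind designed to match several transcripts) had 3473, 5249, 8841 and 5304. Ccl9, the chemokine that osteoclasts secrete in quantity (1417936_at), had 4701, 6988, 10642 and 10023, and its other probe set (1448898_at) had 3857, 5447, 10274 and 9392. All 4 probe sets were lowest on day 1 and highest on day 5. No step between consecutive days reached 2-fold for either gene. Between days 7 and 1, Ccl9 was 2.13-fold higher by the probe set that stands for it and 2.44-fold by the other, and Ccl6 was 1.33-fold and 1.53-fold higher. The fold between the highest and the lowest day was 1.66 for Ccl6 and 2.26 for Ccl9, against 81.9 for Ccl12.

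Ccr2, the receptor, was lower on every later array than on day 1 by all 4 of its probe sets. The probe set that stands for it (1421186_at) had signals of 3887, 121, 81.6 and 28.4 on days 1, 4, 5 and 7. The others had 657, 29.4, 16.7 and 2.79 (1421187_at), 595, 58.2, 39.8 and 25.8 (1421188_at), and 427, 36.2, 36.6 and 46.7 (1460067_at). On day 4 over day 1 the gene was 32.1-fold lower by the first probe set, at least 20.3-fold lower by 1421187_at, 10.2-fold by 1421188_at and 11.8-fold by 1460067_at. From day 4 onward the signals were low and the probe sets did not move together: on day 7 over day 5 the first gave a gene at least 2.52-fold lower, while 1460067_at had a log2 difference of 0.35 and 1421187_at was under the floor on both. Between days 7 and 1 the gene was at least 119.8-fold lower by the first probe set and 9.13-fold lower by 1460067_at, so the size of the difference depends on the probe set and its direction does not. The step from day 1 to day 4, before M-CSF or RANKL was added, held 72.5% of the bounded log2 difference of the first probe set.

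**Figure D2:**
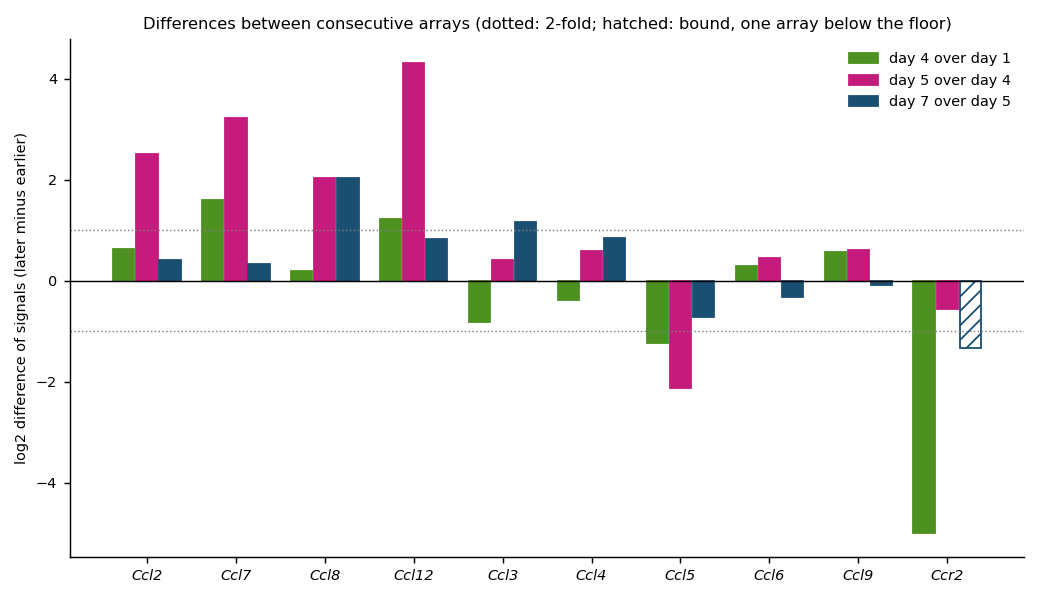
Log2 difference of signals between consecutive arrays (vertical, later minus earlier) for each member (horizontal); green is day 4 over day 1, magenta day 5 over day 4 and blue day 7 over day 5, dotted lines mark 2-fold, and the hatched bar of Ccr2 is a bound. The tallest bars upward are the magenta ones of Ccl12 at 4.31 and Ccl7 at 3.23, and the longest downward is the green one of Ccr2 at -5.00.

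Set beside all named genes, the members' counts read as follows. On day 4 over day 1, 2 of the 10 members were at least 2-fold higher (Ccl7 and Ccl12) and 2 were lower (Ccl5 and Ccr2), where 10.0% of 11981 genes were higher and 8.65% were lower. The median log2 difference was 0.23 for the members and 0.06 for all those genes. On day 5 over day 4, 4 members were higher (Ccl2, Ccl7, Ccl8 and Ccl12) and 1 was lower (Ccl5), where 2.02% of 11804 genes were higher and 4.04% were lower, with medians of 0.60 for the members and 0.06 for all. Among the 10935 genes above the floor on both of these arrays, Ccl12 had the largest positive difference, Ccl7 ranked 3, Ccl2 ranked 5 and Ccl8 ranked 14. Since the members were chosen with these differences in view, the ranks and counts only place them.

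On day 7 over day 5, 2 members were higher (Ccl3 and Ccl8) and 1 was lower (Ccr2, by a bound), against 0.853% of 11611 genes higher and 5.84% lower, with medians of 0.36 for the members and -0.11 for all. Most genes past the threshold were thus lower on day 7, and the median of all genes depended on the scaling of the arrays: counting genes whose signal passed the floor on each of the 2 arrays, it was -0.11 as deposited, 0.06 after scaling to a common median and 0.03 after quantile normalization. Relative to that median, the members' median was 0.47 as deposited and 0.36 after quantile normalization. On day 7 over day 4, which spans the whole time with both cytokines, 6 members were higher (Ccl2, Ccl3, Ccl4, Ccl7, Ccl8 and Ccl12) and 2 were lower (Ccl5 and Ccr2), against 3.12% of 11749 genes higher and 9.12% lower. The medians were 1.499 for the members and -0.09 for all. On day 7 over day 1, 6 were higher (Ccl2, Ccl4, Ccl7, Ccl8, Ccl9 and Ccl12) and again Ccl5 and Ccr2 were lower, against 12.7% of 11967 genes higher and 16.2% lower, with medians of 1.07 for the members and 0.0060 for all. After quantile normalization 4 were higher, since Ccl4 and Ccl9 had log2 differences of 0.96 and 0.90. Among the 10182 genes that passed the floor on both, Ccl12 ranked 2 and Ccl7 ranked 7 from the top.

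Among the other receptors, the probe sets of Ccr1 did not give the same course. Ccr1, the receptor of Ccl3, Ccl5, Ccl6 and Ccl9, had signals of 2057, 1492, 2451 and 2599.8 on days 1, 4, 5 and 7 by the probe set that stands for it, never 2-fold apart. Its other probe set had 477, 117, 145 and 181, with a log2 difference of -2.03 between days 4 and 1 where the first had -0.46. Between days 7 and 1 they differed in direction, at -1.40 by this probe set and 0.34 by the first, so no direction is given for Ccr1. Of the 14 other listed receptors with a probe set, 10 were above the floor on day 1 and 5 on day 7. Of 10 measured by the probe sets that stand for them, 7 were lower and 0 higher on day 7 over day 1. Their median was -1.62, where 16.2% of all genes were lower and 12.7% higher. Ccr9, a receptor of lymphoid and plasmacytoid dendritic cells, was at least 32.0-fold lower, the fractalkine receptor gene Cx3cr1 12.25-fold, the lymph node homing receptor gene Ccr7 at least 9.25-fold and the atypical receptor gene Ccrl2 7.02-fold lower. By the other Ccr9 probe sets above the floor on day 1, the log2 differences were bounds of smaller size, at -3.55 and -2.62. Cx3cr1, which marks monocytes and their descendants, had 524, 176, 81.1 and 42.8. By the probe sets that stand for them, Cx3cr1 and Ccr2 were both lower at each step. For both the largest step was between days 1 and 4, with log2 differences of -1.57 for Cx3cr1 and -5.00 for Ccr2. Ccr3, the eosinophil receptor gene beside Ccr2, had 91.2, 50.4, 39.7 and 42.2.

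**Figure D3:**
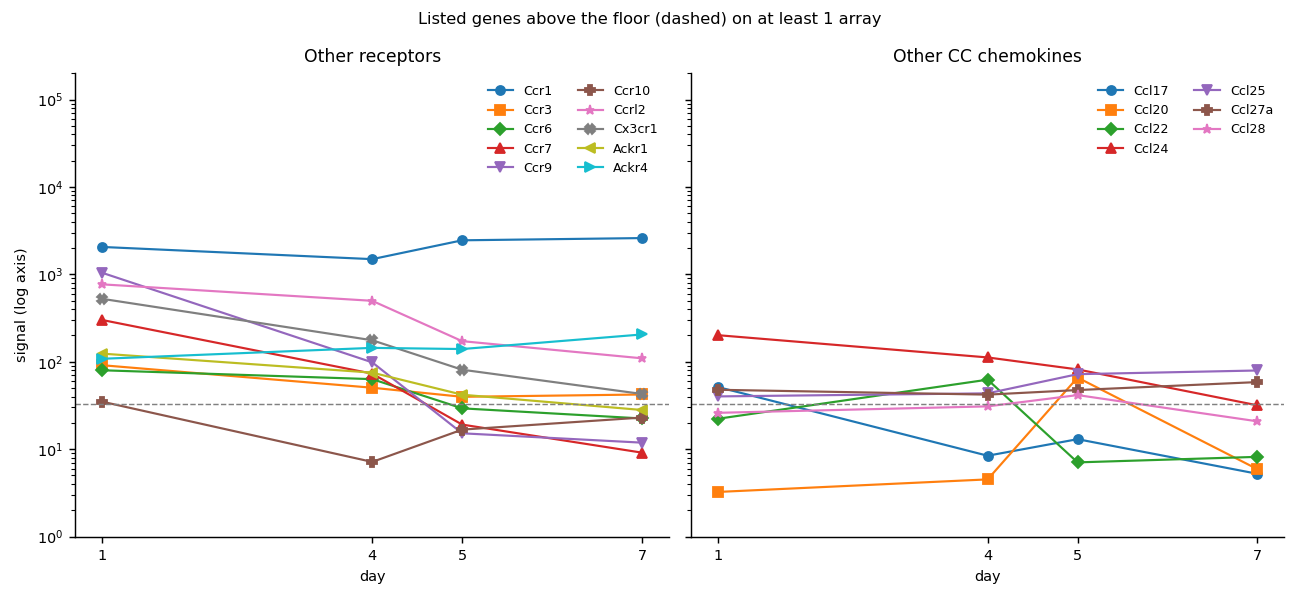
Signal on a log axis (vertical) against day (horizontal) for the listed receptors other than Ccr2 (left) and the listed CC chemokines outside the members (right) that were above the floor (dashed) on at least 1 array, 1 point per array. Ccr1, by the probe set that stands for it, has a signal of 1492 or more throughout, Ccr9 goes under the floor by day 5, and Ccl24 on day 1, at 201, is the highest point of the other chemokines.

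Other CC chemokine genes had low signals. Of 9 with a probe set 7 were above the floor on some array, and the highest signal among them was that of Ccl24, a chemokine of alternatively activated macrophages, with 201, 112, 81.7 and 31.7 on days 1, 4, 5 and 7. Signalling genes downstream of the receptors were counted too. Of 15 such genes, among them the G protein gene Gnai2, the kinase gene Pik3cg and the Rac activator gene Dock2, 0 were higher and 2 were lower by 2-fold on day 7 over day 1. Over all genes, 12.7% were higher and 16.2% lower, so the share of lower signalling genes was near that of all genes. The 2 lower signalling genes were the G protein brake gene Rgs2 (3.57-fold) and the arrestin gene Arrb2, with a log2 difference of -1.42.

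Many chemokine genes answer to NF-kB and to interferon, and lists of such genes were counted beside the members. Of 13 NF-kB responsive genes, 0 passed 2-fold upward and 1 downward on day 5 over day 4, with a median of -0.0062, where 2.02% of all genes were higher and 4.04% lower. The lower gene was Il1b, the gene for an inflammatory cytokine, at 3.76-fold. Tnf had signals of 359, 287, 286 and 329 on days 1, 4, 5 and 7. Between days 7 and 5, where 5.84% of all genes were lower, 4 of the 13 were, led by the prostaglandin synthase gene Ptgs2 at 11.6-fold and the neutrophil attractant gene Cxcl2 at 4.84-fold. Of 10 interferon response genes 0 passed 2-fold on day 5 over day 4. Of these 10, 2 were higher between days 7 and 5 (Rsad2 at 2.41-fold and Ifit1 at 2.01-fold), where 0.853% of all genes were. Between days 7 and 4 another 2 were higher (Cxcl10 at 2.76-fold and Usp18 at 2.51-fold), where 3.12% of all genes were. The part of NF-kB or interferon in the members' signals was not tested.

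Markers of the cells that could carry these transcripts differed between days as well. The labels call the cells of all 4 arrays primary osteoclasts. On day 1 the osteoclast genes Calcr, Dcstamp, Ocstamp and Oscar were under the floor, with signals between 0.73 and 24.7, so that 7 of 11 osteoclast markers were above it, and on days 5 and 7 all 11 were. The summed signal of the osteoclast markers was 9689.6, 29070.3, 47549 and 55971 on days 1, 4, 5 and 7. Of these genes 8 of 10 measured were higher on day 4 than on day 1, 4 of 11 were higher at the next step and 2 of 11 at the last, and the integrin gene Itgb3 was lower on day 7 than on day 4, with a log2 difference of -1.04. Over all genes, 10.0%, 2.02% and 0.853% were higher at the steps to days 4, 5 and 7, and 8.65%, 4.04% and 5.84% were lower. The sum of 12 stromal and osteoblast markers was 5579.6, 38435, 48335 and 30216, and that of 12 macrophage markers was 45147, 76756, 72652 and 75796. Stromal cells and macrophages can both make Ccl2 and Ccl7. Between days 4 and 1, 11 of 12 stromal and 5 of 12 macrophage genes were higher, whereas on day 5 over day 4 the stromal list had 0 higher and 1 lower, and the macrophage list 2 higher and 1 lower. The part of each cell type in the ligands' signals was not tested.

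Beside Ccr2, 4 of 7 measured markers of classical monocytes passed 2-fold downward between days 7 and 1, where 16.2% of all genes did, and 3 differed by less. Fn1, the fibronectin gene, was among these 3, with signals of 3203, 4821, 7250.4 and 4695 on days 1, 4, 5 and 7. The sum over the 7 genes was 43394, 27820.3, 26689 and 13352 on days 1, 4, 5 and 7, with all 7 above the floor on each array. On day 4 over day 1, where Ccr2 was 32.1-fold lower, 2 of the 7 were lower by 2-fold, the myeloid genes Ms4a4c and Plac8, with log2 differences of -3.36 and -2.47. Over all genes, 8.65% were lower and 10.0% higher at that step. F13a1, which encodes a clotting factor subunit that monocytes make, had 6262, 5197, 5476 and 1499, and the macrophage colony-stimulating factor receptor gene Csf1r had 11964, 11068, 11752 and 11651. Csf1r was 1.08-fold lower on day 4 than on day 1. Over the same days the sum of 10 neutrophil markers was 101235, 57768, 32003 and 4551, and the sum for mast cells, basophils and eosinophils (7 genes) was 16119.8, 1646, 974 and 129. Most of that day 1 sum was Prg2, at 11383, while Mcpt8 of the same list had 451, 397, 603 and 75.9. The sums of 7 B cell markers were 5081, 1811, 397 and 170.5, and those of 9 dendritic cell markers 17669.5, 12819, 2971 and 2299.9. Most of the day 1 dendritic cell sum was H2-Aa, at 8685, and H2-Eb1, at 6357. On day 4 over day 1, 5 of the 9 dendritic cell markers were lower and 2 were higher (Itgax and Clec10a). The part of any of these cell types in the Ccr2 values was not tested.

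**Figure D4:**
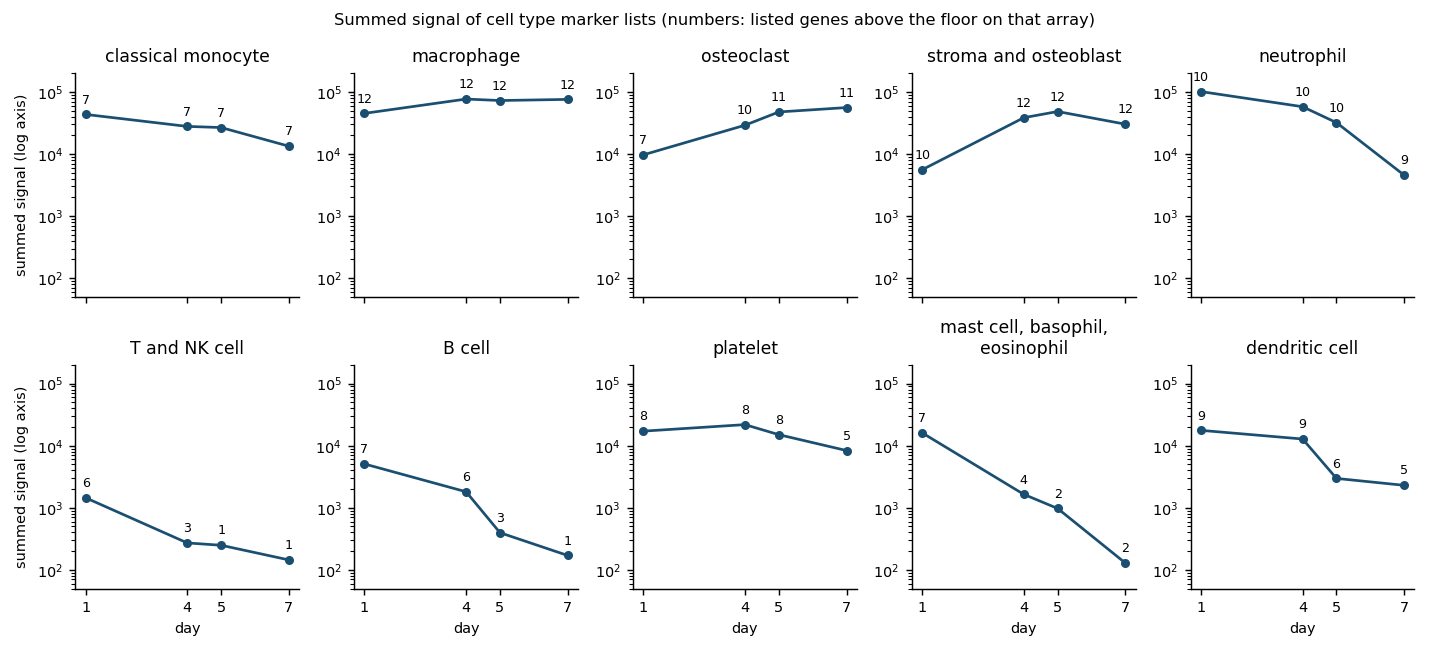
Summed signal of the marker genes of 10 cell types on a log axis (vertical) against day (horizontal), 1 point per array, with the number of listed genes above the floor on that array written over each point. Osteoclast and stromal sums are lowest on day 1, and the neutrophil, B cell and T and NK cell sums are lowest on day 7.

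The genes whose course over the 4 arrays was most like that of a member were found by the root mean square distance between log2 signals, each gene centred on its own mean, among 12437 other genes. With 4 arrays such a distance is a description, and says nothing of shared control. Nearest to Ccr2 were Isg20, an exonuclease gene of the interferon response, at 0.44, the neutrophil lectin gene Fcnb at 0.49, Tmcc2 at 0.54 and Tent5c at 0.56. Nearest to Ccl5 were the neutrophil chemokine receptor gene Cxcr2 at 0.11, the lymphocyte receptor gene Btla at 0.14, the antigen loading gene H2-DMa at 0.16 and the lymphoid transcription factor gene Irf4 at 0.17. Nearest to Ccl2 were the ephrin gene Efnb2 at 0.36, the folate receptor gene Folr2 of macrophages at 0.36, Tmem204 at 0.36 and the growth factor gene Igf2 at 0.37. Folr2 had signals of 269, 538, 1663 and 4094 on days 1, 4, 5 and 7. Among the members, Ccl8 ranked 23 and Ccl7 ranked 47 by closeness to Ccl2. Nearest to Ccl9 were the ribosome export gene Nmd3 at 0.012, the chaperone gene Dnajb11 at 0.016, Atad3a at 0.022 and 1700025G04Rik at 0.025, and Ccl6 ranked 1526. The range over the 4 arrays was 1.18 for Ccl9 and 6.90 for Ccr2 on the log2 scale, and distances are smaller where a range is small.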

How the data were processed

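Total RNA (250 ng, per the labels' protocols) was labelled with biotin and hybridised to 1 Affymetrix mouse array per day. The authors deposited 1 linear intensity per probe set and array. GCOS 1.4 and MAS5 are listed in the submitters' processing notes, and none of the sources used here gives a scaling target. The trimmed mean signal (2% off each end) lay between 277 and 296 on the 4 arrays, the median between 26.2 and 38.3, and between 46.6% and 52.6% of the probe sets other than the 64 controls lay above the floor. The number of arrays limits the precision.

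From these values, signals were floored at the median of all values (32.4), a gene was represented by its brightest probe set on the log2 scale, and differences of at least 2-fold were counted for 5 comparisons (days 4 and 1, 5 and 4, 7 and 5, 7 and 4, 7 and 1), among genes above the floor on at least 1 of the 2 arrays. Several of these comparisons share an array. Of 45037 probe sets, 34945 had 1 symbol, 932 several and 9160 none in the platform annotation; 34741 were matched to RefSeq by gene number, which changed 0 symbols. The members, the gene lists and the rule for named genes (all members, Ccr1, Ccr3 and Cx3cr1, up to 4 genes of a list with the largest differences past 2-fold, and the 4 genes nearest in course to Ccr2, Ccl2, Ccl5 and Ccl9) were chosen with earlier results of these data known. Other genes of the lists are named with their values as examples, chosen after their values were seen, and TATAAA was added to the motifs after the sequences were seen. The counting was tested on simulated data. The 7 alternatives put the floor at the 25th (8.43) or 60th (68.9) percentile, added 16 in place of a floor, used quantile normalization, median scaling or the mean over probe sets, or left out probe sets that match several transcripts. Python 3.11.15, numpy 2.4.6, pandas 2.3.3 and matplotlib 3.10.9 were used.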

Additional observations from a re-analysis of the deposited data

How the results depend on the processing

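The 7 alternatives gave 350 values of the members, of which 342 moved by less than the pooled SD described above, 8 moved by more and 0 with a difference past 2-fold changed direction. Many of these values could not move, so neither they nor the counts that follow measure stability. Leaving out probe sets that match several transcripts changed no member value, since none of them stood for a member. The mean over probe sets can change only members with several, and another floor only values with a signal under either floor. Of 70 counts of members past 2-fold, 65 were within 1.5 times those reported. On day 7 over day 5, 0 members were lower with the floor at the 60th percentile or with the mean over probe sets, where Ccr2 had log2 differences of -0.24 and -0.32, and 4 were higher after median scaling, which added Ccl12 at 1.007 and Ccl4 at 1.02. On day 7 over day 4, 1 member was lower with the floor at the 60th percentile and 1 with the mean over probe sets, where Ccr2 had -0.81 and -0.59. After quantile normalization, Ccl4 (0.96) and Ccl9 (0.90) were under 2-fold between days 7 and 1. Between days 7 and 1 Ccr2 had -6.90 as reported, beyond the 6.36 of Ccl12 in size, but -4.66 with the mean over probe sets and -5.82 with the floor at the 60th percentile, where Ccl12 had 6.36 and 6.32. The later course of Ccr2 is limited by signals near the floor. Quantile normalization and median scaling moved the share of higher genes among all genes past 2-fold on day 7 over day 5 to 31.7% and 27.2%, against 12.7% as deposited, on day 7 over day 4 to 43.8% and 39.9%, against 25.5%, and on day 7 over day 1 to 56.3% and 53.1%, against 43.9%. No array could be left out, because each day had 1. No paired analysis was possible because each group held 1 array.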

Other observations

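The genes Ccl20, Ccl22 and Ccl17, CC chemokines outside the members, were above the floor on a single array. Ccl20, an attractant of cells that carry Ccr6, had signals of 3.24, 4.51, 65.9 and 5.90 on days 1, 4, 5 and 7. Ccl22, a product of macrophages and dendritic cells that acts on Ccr4, had 22.3, 62.4, 7.05 and 8.16, and Ccl17, which shares that receptor, had 51.4 on day 1 and was under the floor on the later days. Ccr4 was under the floor on all 4 arrays, with signals between 1.65 and 14.9. Ackr4, an atypical receptor gene whose product takes up several chemokines, had 108, 144, 140 and 205 on days 1, 4, 5 and 7, with a log2 difference of 0.92 between days 7 and 1.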
